A study of Homo sapiens with 4 samples.

Results

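First exon sites are the places in the deposited site list of P5CS that fall in exon 1 of a transcript with at least 2 exons. They were chosen from the list's region column, which had to read exon, and from its annotation text, which had to give exon 1 of n with n of at least 2. Sites on the mitochondrial genome, on the lower part of chromosome 21 and in 4 repeat-rich loci (LINC00665 with CYKILR and a neighbouring locus on chromosome 19, the U2 snRNA repeat on chromosome 17 and the SNHG27 locus on chromosome 4) were left out, which removed 16 of 477 such sites. The remaining 461 sites made up 2.62% of the 17625 sites of the whole list (exact binomial interval 2.38 to 2.86) and 7.22% of its 6381 exon sites. They were assigned to 248 genes. On the other side of the rule's limit, 1932 exon sites lay in transcripts of 1 exon, against 81 sites just inside it, in transcripts of 2 exons.

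The list came from LACE-seq of NCI-H1299, an established human lung cancer line. In LACE-seq, cDNA ends are amplified from RNA pulled down with an antibody. Of the libraries, 2 used anti-P5CS and 2 used IgG, a control antibody with no chosen target, all from cells grown in the same medium, with no other treatment named. P5CS, the product of ALDH18A1, is the mitochondrial enzyme that opens proline synthesis from glutamate; the series title asks whether it acts on translation as an RNA-binding protein. The list gives 1 set of positions with no value per library, so the anti-P5CS and IgG libraries were not compared, library depth is unknown and the values below carry no error between replicates. Intervals are 95% exact binomial intervals that cover counting error only, and they are too narrow because sites of 1 gene are not independent.

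The first exon of an mRNA starts at the cap, where the translation initiation factors load, and usually carries the 5' untranslated region. In many genes it also holds the start codon and the first stretch of coding sequence, and it ends at the splice site of the first intron. Sites that overlap a 5' untranslated region have a class of their own in the list and are not among these 461. By these classes a first exon site is coding or lies in a noncoding transcript or isoform, and the list does not say which.

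A reference sequence was at hand for the few sites that lie inside a RefSeq promoter window (GRCh38.p14), which spans 250 bases before to 50 bases after a gene start. Of 334 distinct locations 11 lay in such a window, and 10 of these had the smallest width, 21 bases. The window need not be that of the assigned gene. For ZNF503-AS2, UBA2, ZNF529-AS1, LOC100505715, ZSWIM6 and SLC25A6 it was the window of another gene. They are shown because they are the member sites whose bases could be read, and none of them belongs to the genes with most sites. Each is written 5′ to 3′ on the strand of the assigned gene. Capitals mark the motifs searched on both strands, and marked stretches can overlap. The motifs were GGCGG (which on the other strand reads CCGCC), the pyrimidine-rich word CTCTTCC, the purine-rich word GGAGG, the triplet repeat CTGCTG and the run GGGG.
UBR4, chr1:19210220-19210240, minus strand: gagcGGCGGcgaagaGGCGGc
ARHGEF2, chr1:155978380-155978400, minus strand: gcgcggatcgaccggagcaga
ZNF503-AS2, chr10:75401880-75401900, plus strand: ccgcgCCGCCGCCGCCGCCgc
FAM230C, chr13:18195320-18195340, plus strand: gcccgggcagcatcGGCGGcg
UBA2, chr19:34428500-34428520, plus strand: tGGGGGCGGGCGGcatcggct
ZNF529-AS1, chr19:36573480-36573500, plus strand: cgtCCCCtaggcgcGGAAGAG
LOC100505715, chr19:43901680-43901700, minus strand: ctgaagaccagaagacccagg
ZSWIM6, chr5:61332340-61332360, plus strand: gcGGCGGGGGCAGCAGcggcg
SLC25A6, chrX:1391900-1391920, minus strand: gcgggtcaagCTGCTGCTGca

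The SLC25A6 sequence is listed on chromosome Y at the same coordinates as well, so the 10 locations give 9 distinct sequences. Their G and C content ran from 57.1% to 100%, with a median of 81.0%, beside a median of 57.1% over 491624 stretches of 21 bases that tile all 35116 windows. GGCGG, on either strand, was found in 5 of the 9, and 11.6% of all stretches hold it. GGGG was in 3 (23.4% of all stretches), CTGCTG in 2 (2.12%), CTCTTCC in 1 (0.630%) and GGAGG in 0 (10.8%). UBR4, which encodes a ubiquitin ligase, gave the site in the transcript with most exons, exon 1 of 106, at 26 bases from the start. The ZNF503-AS2 site is a run of GCC repeats. FAM230C, a gene with near-identical copies, had its site at 23 bases from the start on both strands. These are matches of letters in few sites chosen by where the reference table reaches, and they say nothing on the locations outside the windows.

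Genes with a first exon site had promoter windows with more G and C than protein-coding genes as a whole, and the difference from other genes on the list was small. The median G and C content was 69.0% over the 137 protein-coding genes with a first exon site that have a window, of 169 counted by assignment. It was 67.3% over 622 genes with an internal but no first exon site, 66.7% over 2003 genes with any site but none in a first exon, and 62.7% over all 15842. GGCGG, on either strand, was present in 90.5%, 89.4%, 86.5% and 74.1% of these windows in the same order. CTCTTCC was present in 14.6%, 13.2%, 12.2% and 11.8%. These values are descriptions with no test.

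The exon labels were borne out by the positions. The distance to a transcript start given in the list had a median of 311 bases, and its quartiles were 172 and 764 bases. It was at most 500 bases at 310 sites (67.2%, 62.8 to 71.5) and at most 1000 at 371 (80.5%, 76.6 to 84.0). Since the rule picked exon 1, this nearness is a check of the label and not a finding. Among the 359 sites whose annotated and assigned transcripts were the same, the site lay in the first 10% of the transcript span at 138 of 155 sites in plus-strand genes (89.0%) and at 184 of 204 in minus-strand genes (90.2%), so exons were counted from the 5′ end on both strands. Against RefSeq starts, which were known for 289 sites, 224 sites (77.5%, 72.3 to 82.2) had their centre within 1000 bases downstream of the nearest start, 20 lay upstream of it and 45 lay further downstream.

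The 90 sites (19.5%) with a listed distance over 1000 bases were mostly annotated to another transcript of the same or a neighbouring gene. At 62 of these 90 (68.9%, 58.3 to 78.2) the annotation named another transcript than the one the distance was measured from, against 40 of 371 (10.8%, 7.82 to 14.4) of the nearer sites. LARP1, which encodes a protein that binds the caps and 5′ ends of mRNAs for the translation machinery, shows this. Its 6 first exon sites carried listed distances of 72814 to 73114 bases, but their centres lay 433 to 733 bases downstream of a RefSeq start. The most distant site was in PVT1, a long noncoding RNA gene next to MYC, at 203459 bases. All 3 PVT1 sites were on the strand opposite to the gene, and each lay in exon 1 of a different annotated transcript. At 69 of the 461 sites the annotated gene was another than the assigned one.

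**Figure D1:**
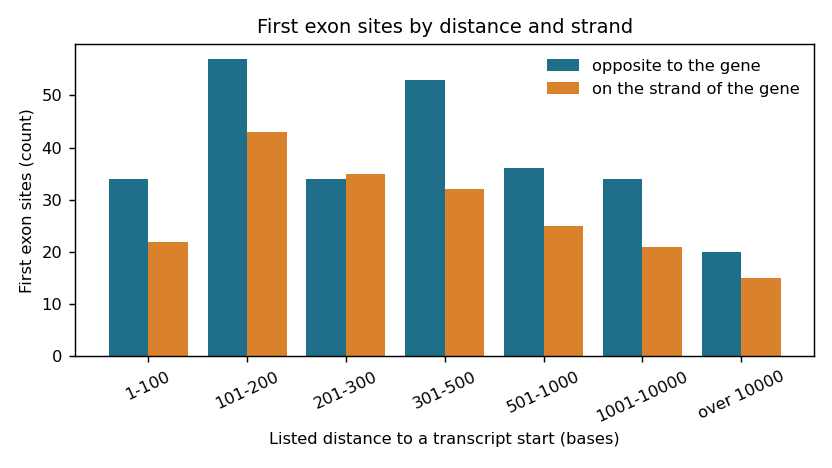
Number of first exon sites (vertical axis) in classes of the listed distance to a transcript start in bases (horizontal axis), split by strand relative to the assigned gene. Opposite-strand sites outnumber the others in each class but one, where 34 were opposite and 35 on the gene's strand.

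Most assigned genes held their first exon sites in 1 place. Of the 248 genes, 193 (77.8%, 72.1 to 82.8) had a single location, 111 had 1 site, 96 had 2, 18 had 3 and 23 had 4 or more. The top 5 genes by count together held 31 of the 461 (6.72%). A site was usually at the smallest width the list allows: 391 sites (84.8%, 81.2 to 88.0) were 21 bases wide, 50 were 41, 16 were 61, 3 were 81 and 1 was 101. Starts and ends lie on a grid of 20 bases, so the position of a site is known to about that step. The distinct locations added up to 8654 bases.

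CCDC85C, which encodes a coiled-coil protein, had 7 first exon sites on chromosome 14 between 99603220 and 99603920. They lay in exon 1 of 6 at 4 locations, 287, 887, 927 and 967 bases from the start. The 3 nearest locations were listed on both strands and the last on the opposite strand alone. RTN4, which encodes a reticulon that shapes tubules of the endoplasmic reticulum, also had 7, on chromosome 2 between 55049980 and 55050240. The RTN4 locations ran from 211 to 451 bases from the start of a transcript of 9 exons. CCDC85C had no site outside its first exon, and RTN4 had 2 more sites, both in the 5' untranslated region.

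The LARP1 sites lay on chromosome 5 between 154755800 and 154756120 in exon 1 of 19. All 3 locations were listed on both strands. LARP1 had 8 further sites, 4 of them intronic, 3 in other exons and 1 in the 5' untranslated region. DMWD had 5 first exon sites on chromosome 19, of which 2 formed a pair at 422 bases from the start of its own transcript. The other 3, at 6882 to 7122 bases, were opposite to DMWD and were annotated to exon 1 of another gene, ENSG00000268434.5.

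Of the 4 first exon sites of at least 81 bases, 2 were assigned to RN7SL2, 1 to NEAT1 and 1 to ENSG00000186481.17. RN7SL2, a gene for the 7SL RNA of the signal recognition particle, had 6 sites on chromosome 14 between 49862540 and 49862780. They include the widest of all 461, 101 bases on the minus strand at 49862580 to 49862680, and an 81-base site across from it on the plus strand. These sites entered by way of a spliced transcript of another gene, ENSG00000282885.3, whose exon 1 of 2 overlaps the 7SL gene. NEAT1, the long noncoding RNA of paraspeckles, had 5 sites 126 to 586 bases from its start, in exon 1 of a 2-exon transcript, one of them 81 bases wide. Those 5 were a small part of the 104 sites assigned to NEAT1. SFPQ, a protein of the same paraspeckles, had 4 first exon sites at 125, 285 and 845 bases, the middle one on both strands.

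Small structured RNAs also entered through overlapping transcripts. The site of RNU5E-1, a U5 small nuclear RNA gene, was 61 bases wide on the strand of the gene and annotated to exon 1 of 2 of ENSG00000285646.2. The VTRNA1-1 site, over a vault RNA gene on chromosome 5, was a pair annotated to exon 1 of 3 of ENSG00000292256.1. GAS5, a host gene of small nucleolar RNAs, had 3 first exon sites, of which the pair at 309 bases lay in its own exon 1 of 12. SNHG1, another such host, had 1 site at 265 bases. NEAT1, GAS5 and SNHG1 were the 3 members with a first exon site among 38 genes of the list of snoRNA hosts and nuclear noncoding RNAs; among all other RefSeq genes that are not protein-coding the share was 0.106%.

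Sites in copies of gene families cannot be placed with certainty. SLC7A5 encodes the light chain of a large neutral amino acid transporter and had 4 first exon sites on chromosome 16 between 87868900 and 87869360, at 147, 467 and 547 bases from the start. Its pseudogene SLC7A5P1 had 4 sites as well, on the same chromosome at 60, 380 and 460 bases. In both, the location nearest the start was listed on both strands and the other 2 locations on the opposite strand alone. By listed distance the locations were spaced alike in both copies. The step between low-coordinate edges of the nearest and the middle location was 320 bases in both. The next such step was 120 bases in SLC7A5, where the site was 61 bases wide, and 80 bases in SLC7A5P1. Both genes lie on the minus strand, so a wider site moves this edge away from the transcript start. The SLC7A5P1 sites were annotated to neither gene but to ENSG00000288632.1, in exon 1 of 14. PKD1 and its pseudogenes PKD1P3 and PKD1P5 were assigned 3 first exon sites each, PKD1P1 and PKD1P6 2 each and PKD1P4 1. The equal counts are not a match of positions. In PKD1 only the pair at 418 bases lay in its own exon 1, and the site at 23518 bases was annotated to ENSG00000261240.1. ANKRD20A11P and BMS1P17, both transcribed pseudogenes, had 4 each, in 2 pairs, and ENSG00000186481.17 had 4 at 45 to 145 bases. In all, 39 of the 461 sites (8.46%, 6.08 to 11.4) were assigned to a pseudogene.

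P4HB, RPN1, ITGA3 and TGFB1 had 4 first exon sites each. P4HB, the protein disulfide isomerase that is also the beta subunit of prolyl 4-hydroxylase, had its sites 73 to 133 bases from the start on chromosome 17, between 81860340 and 81860420. RPN1, a subunit of the oligosaccharyltransferase, had 4 sites at 118 to 198 bases. ITGA3, the alpha-3 integrin, had 4 at 350 to 490 bases in exon 1 of 26, in addition to 60 sites elsewhere in the gene. TGFB1, a secreted growth factor, had 2 pairs at 1002 and 1202 bases. The 4 sites assigned to WNT5B, a secreted Wnt ligand, were annotated to exon 1 of 2 of FBXL14, so the list does not name them as WNT5B exon sites. They lay upstream of the RefSeq start of WNT5B, but 18323 to 18663 bases from the start of the assigned WNT5B transcript.

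BPTF, a subunit of a chromatin remodeler, had 4 sites at 437, 597 and 737 bases in exon 1 of 28. MAT2A, which makes S-adenosylmethionine, also had 4, in 2 pairs at 132 and 172 bases. WNK1, a kinase that controls ion transport, had 4 sites, at 1001 and 1561 bases. ZFC3H1, which helps hand polyadenylated nuclear RNA to the exosome, had 2 pairs at 608 and 828 bases. BPTF, WNK1 and ZFC3H1 had no site outside the first exon. EEF1D, a subunit of the elongation factor that recharges EEF1A, had 4 at 7328 to 7948 bases in exon 1 of 8, beside 71 sites elsewhere. TUBA1B, an alpha-tubulin gene, had 4 that were annotated to exon 1 of 2 different 2-exon transcripts of ENSG00000258017.3.

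**Figure D2:**
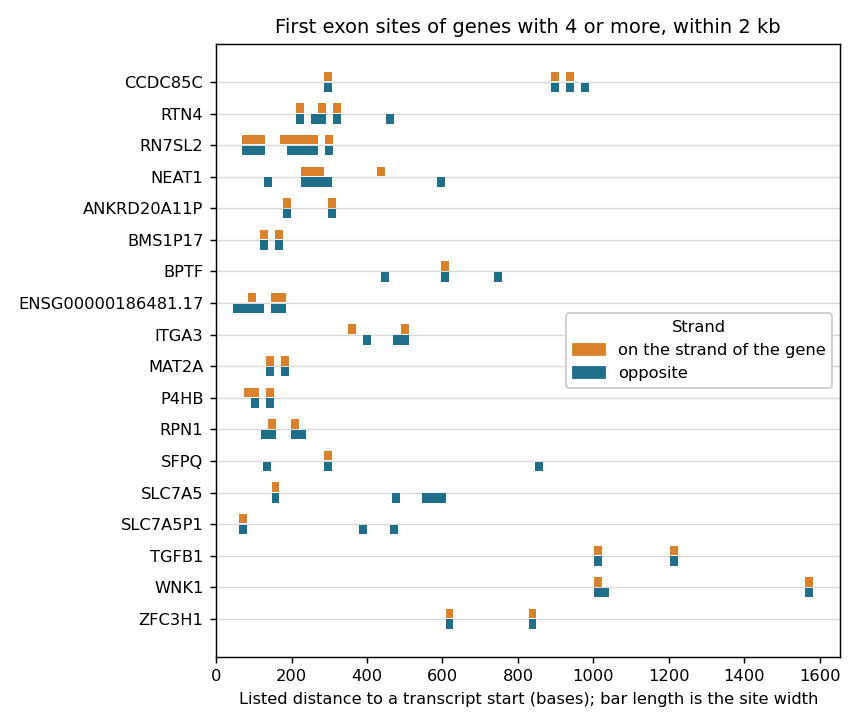
First exon sites of the genes with 4 or more such sites whose listed distances are all at most 1561 bases; the horizontal axis is the listed distance to a transcript start in bases, bar length is the site width, and colour and offset give the strand relative to the gene. Upper and lower bars coincide where a location is listed on both strands, as at all locations of MAT2A, TGFB1 and ZFC3H1.

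For many assigned genes the first exon sites were the only listed sites. Of the 248 genes, 95 (38.3%, 32.2 to 44.7) had no other listed site. Genes are counted by assignment here, and for some of them, such as RN7SL2 and SLC7A5P1, the sites were annotated to exon 1 of another gene. The matching shares for genes with internal or last exon sites were not computed. Internal exons of the same gene held a site in 72 genes (29.0%), introns in 72, the 5' untranslated region in 50 (20.2%, 15.4 to 25.7), the last exon in 36 and the 3' untranslated region in 32. Of the 334 locations, 112 (33.5%, 28.5 to 38.9) had another location within 100 bases, and that neighbour was a first exon site at 83 and a 5' untranslated region site at 19. The share with such a neighbour was 29.0% among 2199 internal exon locations and 38.0% among 526 last exon locations, and these shares were not tested against each other.

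In first exons, as in internal and last exons, sites listed opposite to the gene were the more frequent ones. There were 268 opposite sites (58.1%, 53.5 to 62.7) and 193 on the strand of the gene. The opposite share was 63.1% among internal exon sites and 60.1% among last exon sites. Of all sites 254 (55.1%, 50.4 to 59.7) lay in 127 pairs, with the same coordinates listed on both strands, in which opposite and same-strand sites are equal by construction. Among the 207 sites in no pair, 141 were opposite (68.1%, 61.3 to 74.4). By gene, 132 of 248 had first exon sites on both strands, 83 on the opposite strand alone and 33 on the gene's strand alone. AXL, a receptor tyrosine kinase, YAP1, a coactivator of the Hippo pathway, and TPI1, a glycolytic enzyme, each had 1 first exon site, and each was opposite. PCDHGA1, a protocadherin, was among the 33 genes with sites on their own strand alone, and had 3 sites. Of the 268 opposite sites, 31 (11.6%) overlapped a RefSeq gene known to lie on the strand of the site, where strands were known only for genes in the promoter table. For the 193 sites on the strand of the gene, whose own gene counts here, it was 66.8%. The sources used here do not say whether the listed strand is that of the RNA or of the cDNA.

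As the list divides its sites, first exon sites were less often in protein-coding genes than internal exon sites, and no other measure passed the test. Of the first exon sites 322 (69.8%, 65.4 to 74.0) were assigned to protein-coding genes, 36 to long noncoding RNA genes, 39 to pseudogenes, 9 to small RNA genes and 55 to genes without a symbol in the list, which count here as not protein-coding. Among 2899 internal exon sites 89.4% were in protein-coding genes. For the test each gene entered once and genes with sites in both classes were left out, and 8 such tests were adjusted together by the Benjamini-Hochberg method. With genes as units, 111 of 176 (63.1%) were protein-coding against 767 of 857 (89.5%), an odds ratio of 0.201 (0.136 to 0.298; two-sided Fisher exact test, adjusted exact p = 4.04e-15). The rule lets a first exon come from a 2-exon transcript and an internal exon only from longer ones. In transcripts of at least 3 exons the odds ratio was 0.296 (adjusted exact p = 8.38e-07). Without the genes that have no RefSeq class, 111 of 143 (77.6%) stood against 767 of 802 (95.6%), an odds ratio of 0.159 (0.0913 to 0.276, adjusted exact p = 2.80e-10). Sites that overlap a 5' untranslated region form a class of their own, a limit that need not touch first and internal exons alike, and its part in the difference was not separated from the rest. With that class added to the first exon sites, 344 of 545 genes (63.1%) were protein-coding against 642 of 730 (87.9%), an odds ratio of 0.235 (0.175 to 0.314, adjusted exact p = 1.50e-24). Here 199 genes with sites in both classes were left out, against 72 in the first test. The 63.1% is therefore not the share over all genes of the enlarged class. These 3 alternatives were chosen after seeing the data. Last exons, of which 701 sites were compared, held 68.3% in protein-coding genes, and the difference from first exons was not detected (odds ratio 0.910, 0.600 to 1.38, adjusted exact p = 0.783).

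The strand of sites in first and internal exons was not called different with the first site per gene. Opposite sites stood for 61.4% of 176 genes with first exon sites and 69.5% of 857 genes with internal exon sites, an odds ratio of 0.696 (0.491 to 0.991; two-sided Fisher exact test, adjusted exact p = 0.163). A pair enters by its plus-strand site, so for genes that enter by a pair the orientation is set by the strand of the gene. The call changed with the way sites were counted. With the last site per gene the odds ratio was 0.622 (adjusted exact p = 0.0237), and with all sites it was 0.811 (adjusted exact p = 0.116). In 2 alternatives chosen after seeing the data it passed as well. Among sites in no pair the odds ratio was 0.507 (adjusted exact p = 0.0128), and in transcripts of at least 3 exons it was 0.598 (adjusted exact p = 0.0309). Against last exons it was 0.968 (0.649 to 1.45, adjusted exact p = 0.922). Pairs on both strands stood for 38.1% of genes with first exon sites against 34.5% with internal ones, an odds ratio of 1.16 (0.819 to 1.65), and for 39.6% against 35.0% with last exons, at 1.22 (0.820 to 1.81). With all sites as units, where sites of 1 gene are not independent, the odds ratio of pairs against internal exons was 1.31 (adjusted exact p = 0.0271). The smallest width was held by 88.1% against 92.1% (odds ratio 0.636, 0.372 to 1.13) and by 86.3% against 89.8% (0.720, 0.392 to 1.32). The adjusted exact p of these 4 tests ran from 0.276 to 0.515, and the intervals with the first site per gene leave room for differences in both directions.

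**Figure D3:**
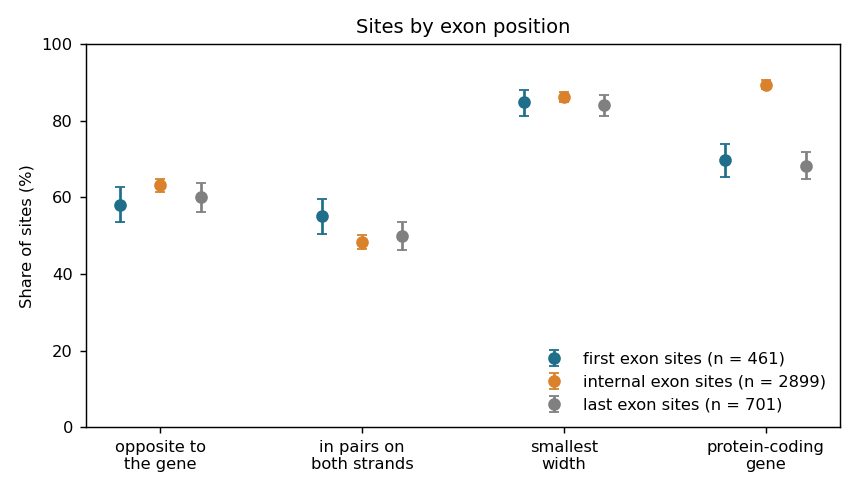
Share of sites in percent (vertical axis) for 4 measures in first, internal and last exon sites; points are shares over sites and bars are 95% exact binomial intervals. The protein-coding share is 69.8% in first exons, 89.4% in internal exons and 68.3% in last exons, and the intervals of the other measures lie closer together.

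Most functional groups held 3 or fewer genes with a first exon site, and the cytoskeleton list held 7. Over all 20052 protein-coding RefSeq genes, 169 (0.843%) had one, and of the 2630 with any site outside the excluded loci 6.43% had one. Both shares count genes by assignment, so they include genes such as WNT5B whose sites were annotated to another gene. That was so at 69 of the 461 sites. Among 33 genes for actin, tubulin and linker proteins of the cytoskeleton 7 had a first exon site, 28.0% of the 25 with any site. One of the 7, TUBA1B, is counted by assignment alone, since its sites were annotated to exon 1 of ENSG00000258017.3; without it 6 remain. PFN1, which encodes the actin-binding profilin, had 3 at 190 and 230 bases and no other site in the gene. TPM1, a tropomyosin, had 3 at 248 to 288 bases. FLNA, a filamin that crosslinks actin, had a pair at 383 bases. FLNC, PLEC and TPM4 had 1 site each, all opposite to the gene. For PLEC, the linker plectin, that was 1 of 100 sites.

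Genes for translation had first exon sites in a few members. Of 66 translation factors and poly(A)-binding proteins 3 had one (11.1% of the 27 with any site). EIF3B, a scaffold subunit of the factor that prepares the small ribosomal subunit, had 3 at 333 and 513 bases on chromosome 7, beside 16 sites elsewhere. PABPC1, the cytoplasmic poly(A)-binding protein, had 1 at 125 bases, and EEF1D had the 4 given above. Of 87 cytosolic ribosomal protein genes only RPLP0, a protein of the ribosomal stalk, had first exon sites, a pair at 339 bases. That is 2.56% of the 39 ribosomal protein genes with any site, beside 6.43% over all protein-coding genes with any site. Of 77 mitochondrial ribosomal protein genes 0 had one, but only 3 had any site, too few to read a low share from. Of 95 hnRNP, SR and RNA helicase genes 3 had one (9.38% of the 32 with any site), HNRNPL with a pair at 86 bases and HNRNPD and HNRNPU with 1 each.

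ALDH18A1 had 0 first exon sites, and of the 21 genes of proline and glutamate metabolism 0 had one, beside 0.843% over all protein-coding genes. Only 4 of the 21 had any site, too few to set apart from the 6.43% over protein-coding genes with any site. Among 19 amino acid transporters 2 had one, SLC7A5, described above, and SLC1A5, which carries glutamine, with a pair at 914 bases. Among 80 chaperones and protein disulfide isomerases 3 had one, 18.8% of the 16 with any site: P4HB, the lectin chaperone CALR with a pair at 111 bases, and HSPA5, the main chaperone of the endoplasmic reticulum, with a pair at 303 bases. ITGA3 was the only one of 39 integrin and laminin genes (10.0% of the 10 with any site). AXL and YAP1 were 2 of 26 growth drivers (10.5% of the 19 with any site). TPI1 was 1 of 23 enzymes of glycolysis and lipid synthesis (11.1% of the 9 with any site). These counts are small, the lists were chosen with earlier results of these data known, and no list was tested.

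**Figure D4:**
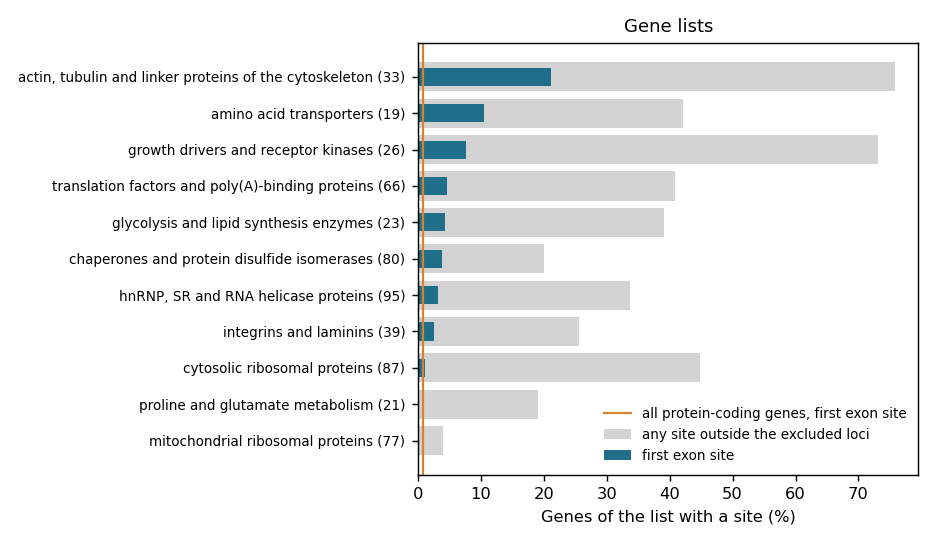
Share of the genes of each list, in percent (horizontal axis), with a first exon site (dark bars) and with any site outside the excluded loci (light bars); list sizes are in brackets and the vertical line is the 0.843% of all protein-coding genes with a first exon site. The cytoskeleton list has the longest dark bar, 7 of 33 genes, and the 2 lists at the bottom have none.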

How the data were processed

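Per the labels, 4 LACE-seq libraries came from NCI-H1299 cells, 2 with anti-P5CS and 2 with IgG, grouped by title. Per the submitters' processing notes, the tools were STAR 2.7.10a and fastp 0.23.2, on hg38. No source used here gives the site caller, its threshold, the role of the IgG libraries or whether replicates were pooled. The authors deposited 1 list of positions, widths and distances in bases with gene names, and no other value or score. Columns of values per library that were not used number 0.

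The members and gene lists were chosen with earlier results of these data known. Assigned genes were matched to the RefSeq table (GRCh38.p14) by Entrez ID, and 406 of 406 sites with an ID matched. Overlap with RefSeq genes meant at least 1 base. Classes were compared by two-sided Fisher exact tests with 1 site per gene. Under this choice a pair on both strands is represented by its plus-strand site. The Fisher test was also run on simulated independent counts, which do not check the choice of site or the leaving out of genes. The genes named are ALDH18A1, the 15 genes with most first exon sites, up to 4 members of each list and the 5 widest sites. The others (SFPQ, SLC7A5P1, TGFB1, WNK1, WNT5B, ZFC3H1, PCDHGA1, PVT1, VTRNA1-1, FLNC, PLEC, TPM4, FBXL14, the PKD1 copies and the genes whose bases are printed) were chosen after their values were seen. The sequence rule asked for sites of the 10 genes with most sites, none of which the promoter windows cover. Python 3.11.15, pandas 2.3.3, numpy 2.4.6, scipy 1.17.1 and matplotlib 3.10.9 were used.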

Additional observations from a re-analysis of the deposited data

How the results depend on the processing

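No paired analysis was possible because the list gives no value per library, and for the same reason no replicate could be left out. Of 77 recomputed values 60 kept their direction and side of the threshold or stayed within the interval of the first value. Some of the 60 could not move and are no check. The protein-coding class is the same for the first and the last site of a gene. With each pair counted once, the odds ratios for the smallest width and for protein-coding genes repeated the first values. The opposite-strand share of 58.1% became 64.5% with each gene counted once, 64.3% among wider sites, 63.9% among plus-strand and 51.6% among minus-strand sites, and 68.1% without pairs. The share in pairs of 55.1% became 38.7% with each gene counted once, where genes with several sites weigh less, and 31.4% among wider sites. The protein-coding share of 69.8% became 55.7% among wider sites, 74.5% where the annotated and assigned gene are the same, and 76.6% in transcripts of at least 3 exons. Against internal exons, the opposite-strand odds ratio of 0.696 passed the threshold at 0.622 with the last site per gene, 0.598 in transcripts of at least 3 exons and 0.507 without pairs, and the odds ratio of pairs passed at 1.31 with all sites as units. Against last exons, the odds ratio turned to 1.05 for the smallest width and to 1.07 for protein-coding genes with all sites as units, and to 1.07 for protein-coding genes in transcripts of at least 3 exons, none past the threshold. The cause of these moves was not tested. Alternatives without pairs, with at least 3 exons, without genes of no RefSeq class and with the 5' untranslated region class added were chosen after seeing the data. With each pair counted once, by its plus-strand site, the orientation test against internal exons gave the same odds ratio of 0.696. That result is not among the 77 values and checks nothing, since a pair holds both strands.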
